A study of Mus musculus with 8 samples.

Results

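TRBV17, the V segment of the mouse T cell receptor (TCR) β-chain that antibody nomenclature calls Vβ9, was named in 3426 of the 60131 β-chain clonotypes of the series, counted in each mouse. A clonotype is one nucleotide sequence of the CDR3, the receptor loop encoded across the V-D-J junction, together with its V and J segments. The members were all clonotypes whose V segment was given as TRBV17, and the segment was chosen from 24 β-chain V segments with its reads in the 2 groups already known. Every value that sets the groups side by side for TRBV17 is therefore a description and carries no test. Comparisons of TRBV17 with the other V segments inside each mouse did not enter that choice, and these were tested. Those of the number of reads in a clonotype, however, were computed from the same TRBV17 reads. Their p-values are therefore not independent of the choice. All of these comparisons were also drawn up with earlier results of these data known.

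Each library held endogenous CD8+ T cells of 1 mouse bearing the melanoma B16F10, with 3 mice in the CTX group and 5 in the CTX/CD4 group. All mice were female C57BL/6 of 6 to 8 weeks and received 200000 B16F10 cells on day 0, cyclophosphamide (CTX), which depletes lymphocytes, at 300 mg/kg on day 3, and on day 5 an adoptive transfer of 2000000 Pmel-1 T cells, whose receptor is a transgene specific for gp100, a melanoma antigen, followed by 10000 IU interleukin-2 daily for 3 days. CTX/CD4 mice were also given 200 μg of the anti-CD4 antibody GK1.5 on days 10, 17 and 24, and CTX mice were not, so that the antibody was the only labelled difference. On day 25, Thy1.1-negative CD8+ cells, which leaves out the transferred Thy1.1 cells, were sorted from inguinal lymph nodes and spleen, and TCR chains were amplified from their RNA. The tables list receptor joins only, so the sort for CD8 could not be checked against other genes.

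Each β-chain library held exactly 10000 reads after down-sampling by the authors, and 5671 to 8529 clonotypes. The number of reads of a segment depends on both the number of cells that use it and the RNA in each cell, and fewer cells and less RNA per cell cannot be told apart here. CTX/CD4 mice 1 and 2 shared 148 β-chain nucleotide clonotypes, and 20 to 52 were shared in each of the other 27 pairs. Of the 148, TRBV17 accounted for 5, and the range over the other 27 pairs was 0 to 5 TRBV17 clonotypes. With these clonotypes left out of CTX/CD4 mouse 2, the difference in TRBV17 share of reads was -0.984 percentage points, and with them it was -0.999. The 5 TRBV17 clonotypes held 8 reads in that mouse and 47 in CTX/CD4 mouse 1, or 1.41% and 8.67% of TRBV17 reads. Leaving them out of CTX/CD4 mouse 1 was not tried. The source of the common sequences was not tested.

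A β-chain is built in the thymus when a D segment is first joined to a J segment and a V segment is then joined to the DJ product. The V segment gives the first residues of the CDR3, beginning with a conserved cysteine, and the J segment gives the last ones, ending with a conserved phenylalanine. The bases between them come from the D segment and from nucleotides that terminal transferase adds without a template. The locus holds 2 DJ clusters: TRBD1 lies before the TRBJ1 segments, and TRBD2 lies between them and the TRBJ2 segments, so that TRBD1 can be joined to both clusters and TRBD2 only to TRBJ2. The CD8+ T cell that carries a given β-chain uses it, paired with an α-chain, to recognise a peptide on a class I major histocompatibility molecule.

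In the GRCm38 assembly (GENCODE vM21), TRBV17 occupies chr6:41163062-41163556 on the forward strand in 2 exons, between TRBV16 and TRBV19. The end of its second exon contributes 17 bases to the CDR3, and the heptamer of the recombination signal follows directly. The sequences of this end and of the CDR3 parts of 3 frequent J partners show what a TRBV17 join starts from. Capitals mark the heptamer, which is cut away during joining.
TRBV17 end, chr6:41163540-41163563: tgtgctagcagtagagaCACAGGG
TRBJ2-1, chr6:41542754-41542775: taactatgctgagcagttcttc
TRBJ2-5, chr6:41543453-41543473: aaccaagacacccagtacttt
TRBJ2-7, chr6:41543810-41543828: ctcctatgaacagtacttc

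The most abundant TRBV17 clonotype of each mouse is shown next, because its size varied between mice and moved the reads of single J partners, described further on. Capitals mark the bases that the alignment gave to neither V nor J, that is, bases of the D segment and added nucleotides. The lower-case parts can run past the germline ends printed above. Examples are the final t of the V part in CTX/CD4 mouse 4 and the first a of the J part in CTX mouse 1.
CTX mouse 1: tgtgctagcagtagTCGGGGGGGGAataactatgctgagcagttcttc
CTX mouse 2: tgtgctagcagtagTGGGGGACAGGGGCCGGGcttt
CTX mouse 3: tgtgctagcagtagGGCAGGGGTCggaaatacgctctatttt
CTX/CD4 mouse 1: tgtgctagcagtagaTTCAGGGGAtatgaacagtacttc
CTX/CD4 mouse 2: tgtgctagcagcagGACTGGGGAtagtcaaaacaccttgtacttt
CTX/CD4 mouse 3: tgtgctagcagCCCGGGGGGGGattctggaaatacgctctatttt
CTX/CD4 mouse 4: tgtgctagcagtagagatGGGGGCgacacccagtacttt
CTX/CD4 mouse 5: tgtgctagcagtgctgagcagttcttc
They held 9, 18 and 52 reads in CTX mice 1 to 3 and 22, 70, 10, 19 and 78 reads in CTX/CD4 mice 1 to 5. No sequence among the 8 was the leading TRBV17 clonotype of another mouse, and the ranges of their reads in the groups overlapped. The clonotype of CTX/CD4 mouse 2 was the most abundant β-chain clonotype of its library and differed from the germline end by T12C, with positions counted from 1 at the first base of the cysteine codon. The clonotype of CTX/CD4 mouse 5, with 9 residues and no base between V and J, made up 14.2% of the TRBV17 reads of that mouse.

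TRBV17 accounted for 659, 632 and 679 reads in CTX mice 1 to 3. In CTX/CD4 mice 1 to 5 it accounted for 542, 567, 550, 575 and 550 reads. Every CTX/CD4 mouse was below every CTX mouse. The mean was 657 ± 23.6 reads (SD, n = 3) against 557 ± 13.7 (SD, n = 5), a difference of -99.9 reads or -15.2%. The Wilson 95% interval for counting error of a single library's share was 5.07% to 5.96% for CTX/CD4 mouse 3, with 5.50% of reads, and 5.86% to 6.81% for CTX mouse 2, with 6.32%. For CTX/CD4 mouse 4, the highest of its group with 5.75%, it was 5.31% to 6.22%. Both CTX/CD4 intervals overlapped that of CTX mouse 2, the lowest of its group. Of the 23 V segments that reached 10 reads in 3 or more mice, 2 were lower in this sense, which is 8.7%, and since TRBV17 was selected on this value nothing is read from it. The other was TRBV13-3.

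The number of TRBV17 clonotypes was 498, 501 and 490 in the CTX mice and 362, 425, 420, 406 and 324 in the CTX/CD4 mice. These ranges did not overlap either. The mean was 496 ± 5.69 (SD, n = 3) against 387 ± 43.3 (SD, n = 5), a difference of -109 clonotypes or -21.9%, and the same 8.7% of V segments were lower without overlap by this count. All β-chain clonotypes together also differed, by -12.7%, with overlapping groups, and the clonotypes of the other V segments by -12.1%. As a share of each library's clonotypes, TRBV17 made up 6.19%, 5.87% and 6.19% in the CTX mice and 5.12%, 5.11%, 5.52%, 5.81% and 5.71% in the CTX/CD4 mice. This share was also lower in each CTX/CD4 mouse, as it was for 8.7% of V segments. The gap between the groups was narrow, at 5.87% for the lowest CTX mouse and 5.81% for the highest CTX/CD4 mouse.

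Reads per TRBV17 clonotype pointed the other way. They were 1.32, 1.26 and 1.39 in the CTX mice and 1.50, 1.33, 1.31, 1.42 and 1.70 in the CTX/CD4 mice, and the groups overlapped. On the log2 scale, the difference in TRBV17 reads of -0.24 was the sum of -0.36 for the number of clonotypes and 0.13 for reads per clonotype. For all other V segments pooled, the values were -0.20 for the number of clonotypes and 0.21 for reads per clonotype. At an equal 542 TRBV17 reads per mouse, the expected number of clonotypes was 426, 441 and 410 in the CTX mice and 362, 408, 415, 387 and 320 in the CTX/CD4 mice, and the groups then overlapped.

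**Figure D1:**
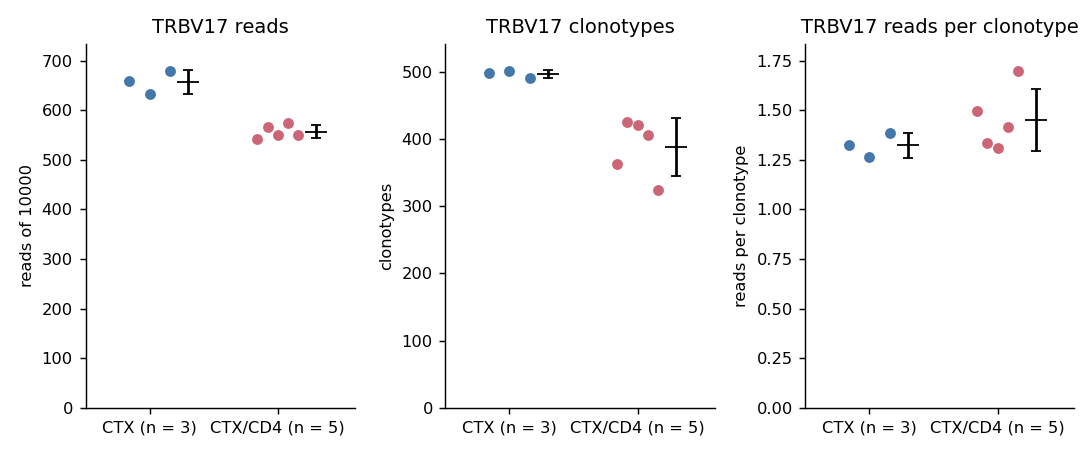
TRBV17 reads of 10000, TRBV17 clonotypes and TRBV17 reads per clonotype in each mouse. Points are mice, blue for CTX and red for CTX/CD4, and the black marks to the right of them are the mean ± SD. The CTX/CD4 points lie below all CTX points for reads and clonotypes and overlap them for reads per clonotype.

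Counted in reads, clonotypes seen in 1 or 2 reads carried the difference of TRBV17 between the groups. Clonotypes of 1 read numbered 390, 410 and 380 in the CTX mice and 264, 378, 342, 319 and 253 in the CTX/CD4 mice. The CTX/CD4 mice were all lower, by as little as 2 clonotypes between CTX/CD4 mouse 2 and CTX mouse 3, and 8.7% of V segments were lower in this class without overlap. The class made up -82.1 of the -99.9 reads, a change in its mean of -20.9%. Reads of this class in the other V segments changed in the same direction, from a mean of 6532 to 5558, or -14.9%, with overlapping groups. As a share of all β-chain clonotypes of 1 read, however, TRBV17 made up 5.48% to 5.86% in the CTX mice and 4.75% to 5.76% in the CTX/CD4 mice, and these ranges overlapped.

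In the class of 2 reads, the number of TRBV17 clonotypes was also lower in each CTX/CD4 mouse. There were 76, 75 and 86 of them in the CTX mice and 64, 34, 54, 62 and 49 in the CTX/CD4 mice. The groups did not overlap, and TRBV17 was the only V segment of 23 that was lower in this way, 4.35%. The mean was 79.0 ± 6.08 (SD, n = 3) against 52.6 ± 12 (SD, n = 5), which made up -52.8 reads. TRBV17 held 8.03% ± 0.620 (SD, n = 3) of the library's clonotypes of 2 reads in CTX mice and 5.94% ± 0.332 (SD, n = 5) in CTX/CD4 mice, also without overlap. How many V segments were without overlap by this share was not computed, so nothing is read from it. The other V segments had 783 to 1039 such clonotypes in the CTX mice and 595 to 1005 in the CTX/CD4 mice, and these ranges overlapped.

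In the larger classes the groups overlapped. Clonotypes of 3 to 9 reads held 117, 54 and 75 reads in the CTX mice and 110, 51, 90, 89 and 62 in the CTX/CD4 mice. Their means differed by -1.60 reads, while the other V segments had a mean of 765 reads in this class in the CTX mice and 1262 in the CTX/CD4 mice. TRBV17 thus held 9.78% ± 2.99 (SD, n = 3) of the library's clonotypes of 3 to 9 reads in CTX mice and 6.54% ± 1.76 (SD, n = 5) in CTX/CD4 mice, a lower mean as in the class of 2 reads, but with overlap. Clonotypes of 10 or more reads, here called expanded, held 0, 18 and 52 reads in the CTX mice and 40, 70, 10, 43 and 137 in the CTX/CD4 mice. The groups overlapped, and the mean difference of 36.7 reads was opposite in sign to the total. Expanded clonotypes were also left out for TRBV17 alone, with those of the other V segments kept in the library total. The difference in TRBV17 share of reads was then -1.37 percentage points in place of -0.999. The expanded reads kept for the other V segments had means of 224 in the CTX mice and 968 in the CTX/CD4 mice. A share with expanded clonotypes left out of all V segments was not computed.

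**Figure D2:**
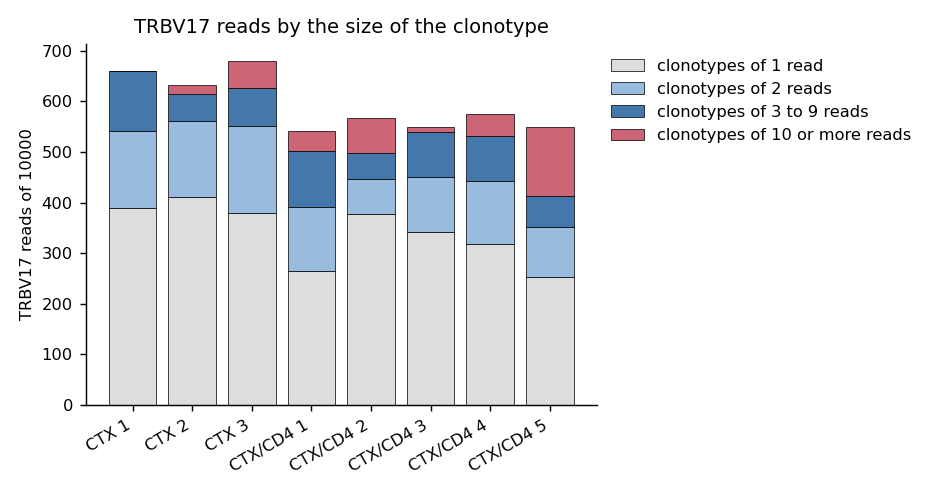
TRBV17 reads of 10000 in each mouse, stacked by the number of reads of the clonotype they belong to. The segments for 1 and 2 reads are shorter in the CTX/CD4 mice, and the segment for 10 or more reads ranges from 0 reads in CTX mouse 1 to 137 in CTX/CD4 mouse 5.

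There were 12 expanded TRBV17 clonotypes, 2 in CTX mice and 10 in CTX/CD4 mice, of 262 expanded β-chain clonotypes in all, 4.58%. By mouse the number was 0, 1 and 1 in the CTX group and 2, 1, 1, 3 and 3 in the CTX/CD4 group. Besides the leading clonotypes above, 5 more reached 10 reads.
CTX/CD4 mouse 5, 49 reads, TRBJ2-5: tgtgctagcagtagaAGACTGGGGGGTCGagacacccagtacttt
CTX/CD4 mouse 1, 18 reads, TRBJ1-1: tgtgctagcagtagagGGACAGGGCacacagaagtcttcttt
CTX/CD4 mouse 4, 13 reads, TRBJ2-4: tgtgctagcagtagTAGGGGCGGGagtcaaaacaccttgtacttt
CTX/CD4 mouse 4, 11 reads, TRBJ2-2: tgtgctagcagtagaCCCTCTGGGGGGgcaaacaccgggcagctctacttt
CTX/CD4 mouse 5, 10 reads, TRBJ1-4: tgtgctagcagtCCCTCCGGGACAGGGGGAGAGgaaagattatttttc
The expanded clonotypes ranged from 9 to 17 residues and used 8 of the 12 TRBJ segments, so no single length or partner described them. Those of CTX/CD4 mouse 1, with 22 and 18 reads, were also present in CTX/CD4 mouse 2 with 3 and 2 reads. The other 10 were found in 1 mouse each. Expanded clonotypes of the other V segments numbered 7 to 14 per CTX mouse and 16 to 92 per CTX/CD4 mouse, without overlap. The TRBV17 share of expanded clonotypes was 0%, 12.5% and 12.5% in the CTX mice, from at most 1 TRBV17 clonotype each, and 3.16% to 5.88% in the CTX/CD4 mice, with means of 8.33% and 4.68% and overlapping groups.

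TRBJ partners were compared between TRBV17 and the other V segments inside each mouse. Of the clonotypes of TRBV17, 82.3%, 82.6% and 79.8% were joined to the TRBJ2 cluster in the CTX mice and 79.8%, 79.8%, 79.5%, 78.1% and 79.6% in the CTX/CD4 mice. In the other V segments together the share was 67.4% to 71.9%. TRBV17 was higher in 8 of 8 mice, by 10.7 ± 2.24 percentage points (SD, n = 8; exact two-sided sign-flip test, p = 0.0078, the smallest p that 8 mice allow; adjusted p = 0.0156 over 18 comparisons). Among the 19 V segments with at least 50 clonotypes in every mouse, TRBV17 had the highest median TRBJ2 share, 79.8%, and the other medians ran from 60.8% to 77.5%. The range of TRBV17 over the 8 mice, 78.1% to 82.6%, overlapped the range of TRBV14, 72.2% to 83.6%, and those of TRBV4 and TRBV12-2.

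**Figure D3:**
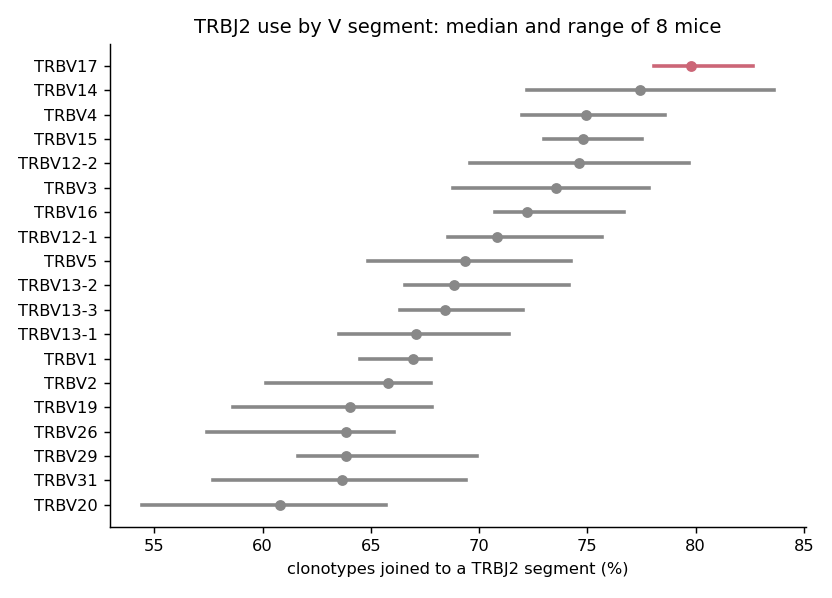
Share of clonotypes joined to a TRBJ2 segment, for the 19 V segments with at least 50 clonotypes in every mouse. Points are medians and bars the range of 8 mice, with TRBV17 in red at a median of 79.8%; the axis does not start at 0.

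Of the 6 TRBJ2 partners, 3 were higher for TRBV17 by the test. TRBJ2-5 was joined in 17.0% ± 2.15 (SD, n = 8) of TRBV17 clonotypes and 11.5% ± 0.316 of the others, and TRBJ2-1 in 17.3% ± 2.31 and 13.2% ± 0.360. Both were higher for TRBV17 in 8 of 8 mice (exact sign-flip test, adjusted p = 0.0156 each). TRBJ2-5 passed under all alternatives run, whereas the call for TRBJ2-1 was lost with clonotypes weighted by reads (adjusted p = 0.0625, exact sign-flip test) and without clonotypes of 1 read (adjusted p = 0.0996). TRBJ2-2 was higher in 7 of 8 mice, with 6.34% ± 1.12 against 5.09% ± 0.306 (SD, n = 8; exact sign-flip test, adjusted p = 0.0256). That call was lost weighted by reads, without clonotypes of 1 read, against TRBV16 and TRBV19 (adjusted p = 0.3, 0.221 and 0.123, exact sign-flip test), and without CTX mouse 1 or 2 or CTX/CD4 mouse 1 or 3 (adjusted p = 0.0511 each). TRBJ2-7, the most frequent partner of both, had 23.05% ± 2.86 against 21.8% ± 0.667 and was higher in 4 of 8 mice (exact sign-flip test, adjusted p = 0.396). Its mean difference of 1.26 percentage points was about that of TRBJ2-2, 1.25, with a wider spread between mice, and against TRBV16 and TRBV19 alone it was 2.24 and passed the test (adjusted p = 0.0176, exact sign-flip test). TRBJ2-3 was likewise higher in 4 of 8 mice (exact sign-flip test, adjusted p = 0.563).

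TRBJ2-4 was an exception within its cluster, with 7.25% ± 0.965 of TRBV17 clonotypes against 8.92% ± 0.302 of the others (SD, n = 8), lower in 8 of 8 mice (exact sign-flip test, adjusted p = 0.0156). The call was lost weighted by reads, without clonotypes of 1 read and against the median of the other segments (adjusted p = 0.783, 0.302 and 0.0603, exact sign-flip test). Of the TRBJ1 segments, TRBJ1-2, TRBJ1-3, TRBJ1-4, TRBJ1-5 and TRBJ1-6 were lower for TRBV17 in 8 of 8 mice, each with adjusted p = 0.0156 in the exact sign-flip test. The largest of these differences was that of TRBJ1-2, at 2.21% ± 0.426 against 5.50% ± 0.203 (SD, n = 8). TRBJ1-1, the segment nearest to TRBD1, had 8.07% ± 1.58 against 9.84% ± 0.584 and was lower in 6 of 8 mice (SD, n = 8; exact sign-flip test, adjusted p = 0.0541). It passed against TRBV16 and TRBV19, and without CTX mouse 3 or CTX/CD4 mouse 4 (adjusted p = 0.0469 each, exact sign-flip test). In all, 3 of the 12 partners were higher, 6 were lower and 3 did not pass the test. Without clonotypes of 1 read, TRBJ2-5 and TRBJ1-6 were the only partners to pass (adjusted p = 0.0332 each, exact sign-flip test), and TRBJ1-2, TRBJ1-3, TRBJ1-4 and TRBJ1-5 had adjusted p = 0.0664, 0.321, 0.266 and 0.0531. Weighted by reads, TRBJ1-3, TRBJ1-4 and TRBJ1-5 did not pass either (adjusted p = 0.783, 0.0536 and 0.05, exact sign-flip test), nor did TRBJ1-5 against TRBV16 and TRBV19 (0.0938).

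**Figure D4:**
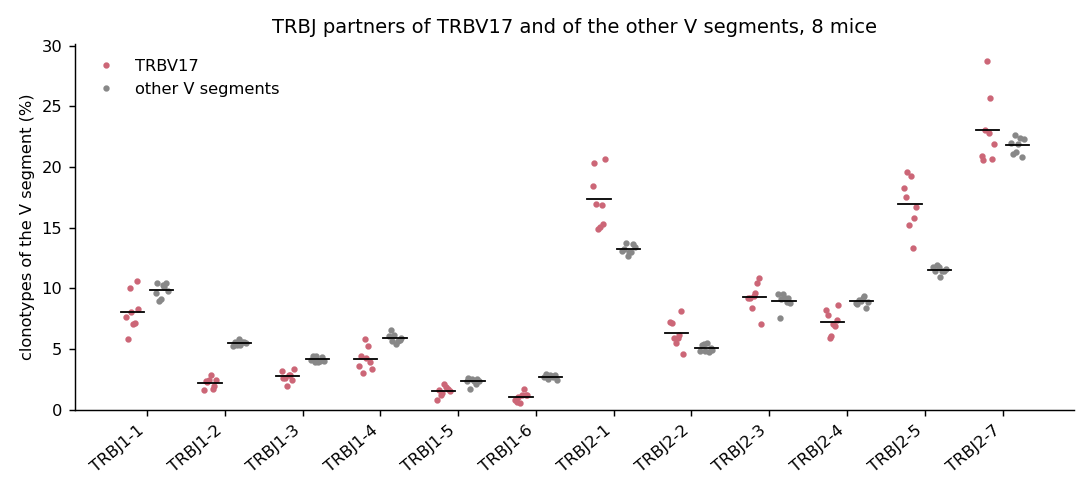
Share of clonotypes joined to each of the 12 TRBJ segments, for TRBV17 (red) and for all other V segments together (gray). Points are the 8 mice and black lines their means, and TRBV17 lies above the other segments at TRBJ2-1 and TRBJ2-5 in every mouse and below them at TRBJ1-2 to TRBJ1-6.

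A D segment was named for most TRBV17 clonotypes, TRBD1 in 43.7% ± 0.861 (SD, n = 3) in the CTX mice and 42.6% ± 2.87 (SD, n = 5) in the CTX/CD4 mice. Among TRBJ2 joins with a named D segment, TRBD2 made up 47.5% to 52.6% for TRBV17 over the 8 mice and 56.1% to 59.7% for the other V segments. TRBV17 was lower in each mouse, and no test was run on this share. Among TRBJ1 joins with a named D segment, TRBD2 made up 4.08% to 14% for TRBV17 and 7.72% to 9.93% for the other V segments. The order of segments on the chromosome does not allow this product by deletion, so D names from short stretches were uncertain.

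By TRBJ partner, 88.8% of the read difference between the groups lay in the TRBJ2 cluster, which held most TRBV17 reads in all mice. TRBV17 reads joined to TRBJ2-5 were 118, 120 and 120 in the CTX mice and 76, 88, 75, 97 and 111 in the CTX/CD4 mice. This was the only partner of the 10 compared that was lower in each CTX/CD4 mouse, and none was higher; over all 208 V-J pairs 2.88% were lower. It contributed -29.9 of the -99.9 reads. The clonotypes joined to TRBJ2-5 were 91, 88 and 96 in the CTX mice against 55, 82, 56, 64 and 54, also without overlap.

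Single large clonotypes decided several of the other partners. For TRBJ2-1 the reads were 131, 133 and 113 in the CTX mice and 75, 74, 89, 79 and 179 in the CTX/CD4 mice. The 179 reads of CTX/CD4 mouse 5 included its clonotype of 78 reads, and without the leading clonotype of each mouse the values were 122, 133 and 113 against 75, 74, 89, 79 and 101. The groups then did not overlap. The share of all V-J pairs without overlap after such a removal was not computed, so nothing is read from this. By number, TRBJ2-1 clonotypes were 92, 102 and 83 against 54, 64, 71, 62 and 67, and 3 of the 10 partners, TRBJ1-3, TRBJ2-1 and TRBJ2-5, were lower by clonotypes in each CTX/CD4 mouse, beside 5.29% of the 208 V-J pairs.

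TRBJ1-3 showed the reverse. Its mean difference of -19.2 reads was -3.87 reads without the leading clonotypes, since 52 of the 68 reads in CTX mouse 3 belonged to 1 clonotype. TRBJ2-4 differed by 7.2 reads with the leading clonotypes and by -6.8 without them, and 70 of the 101 reads in CTX/CD4 mouse 2 belonged to 1 clonotype. For TRBJ2-5, leaving out the leading clonotypes gave 118, 102 and 120 reads against 76, 88, 75, 78 and 111, and the groups overlapped.

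As a share of TRBV17 clonotypes, none of the 12 TRBJ partners was without overlap between the groups. Among TRBV17 clonotypes of 2 or more reads, the TRBJ2 share was 88.0%, 86.8% and 84.5% in the CTX mice and 73.5%, 74.5%, 83.3%, 80.5% and 83.1% in the CTX/CD4 mice. The CTX/CD4 mice were lower throughout, and so were 15.8% of the 19 V segments with at least 50 clonotypes in every mouse. Among clonotypes of 1 read the TRBJ2 share was 78.4% to 81.7% against 77.4% to 82.2%, and the groups overlapped.

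The CDR3 of TRBV17 clonotypes ran from 5 to 19 residues, with a median of 14, and 73.3% had 13 to 15. The mean length was 14.11, 13.96 and 14.12 residues in the CTX mice and 13.92, 14.02, 13.99, 13.98 and 14 in the CTX/CD4 mice, and the groups overlapped. Compared with the other V segments, TRBV17 CDR3s were longer by 0.142 ± 0.0807 residues (SD, n = 8) and longer in 7 of 8 mice (exact sign-flip test, adjusted p = 0.0256). The exception was CTX/CD4 mouse 1, with 13.92 against 13.93 residues. Against the locus neighbors TRBV16 and TRBV19 the difference was 0.0250 residues (exact sign-flip test, adjusted p = 0.367), and TRBV17 ranked 6 from the longest among the 19 V segments. The call was also lost weighted by reads, without clonotypes of 1 read (adjusted p = 0.394 and 0.0759, exact sign-flip test) and without CTX mouse 1 or 2 or CTX/CD4 mouse 3 (0.0511 each).

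**Figure D5:**
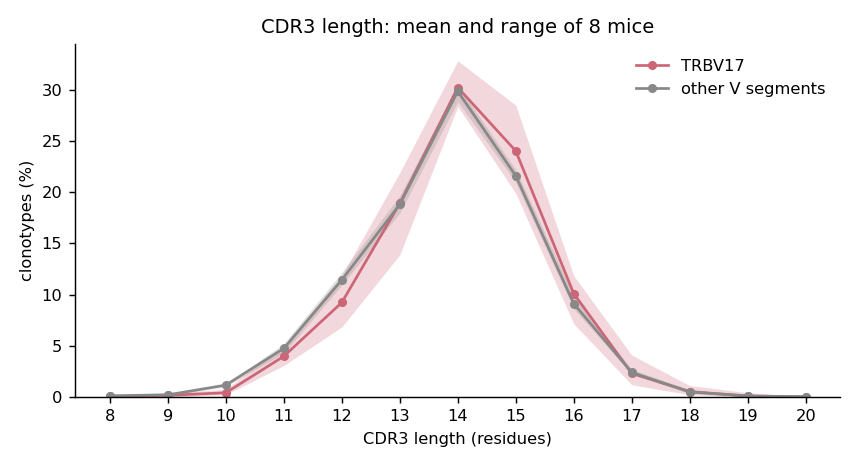
Distribution of CDR3 length for TRBV17 clonotypes (red) and for the clonotypes of all other V segments (gray). Lines are means and bands the range of 8 mice; both peak at 14 residues, and the red line is lower at 12 and higher at 15, where the bands overlap.

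By CDR3 length, the largest part of the read difference lay at 14 residues, with -62.5 reads. The reads were 207, 178 and 261 in the CTX mice and 167, 150, 194, 141 and 112 in the CTX/CD4 mice, and the groups overlapped through CTX/CD4 mouse 3. The clonotypes of 14 residues were 159, 144 and 154 against 110, 126, 138, 116 and 92, without overlap, which also held for 13% of V segments. Clonotypes of 16 or more residues were 59, 69 and 81 against 45, 57, 38, 52 and 45, without overlap as well, as for 8.7% of V segments. As shares of TRBV17 clonotypes, all 6 length groups overlapped between CTX and CTX/CD4 mice. CDR3s of 11 or fewer residues held 100 reads in CTX/CD4 mouse 5, 78 of them from 1 clonotype, and 16 to 36 in the other mice.

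The bases between V and J that were assigned to no segment numbered 3.00 ± 0.0852 per TRBV17 clonotype (SD, n = 8) and 2.99 ± 0.0479 in the other V segments (exact sign-flip test, adjusted p = 0.789). Against TRBV16 and TRBV19 alone, TRBV17 had -0.164 bases (exact sign-flip test, adjusted p = 0.0176). By group the TRBV17 mean was 2.90, 2.85 and 2.98 in the CTX mice and 3.09, 3.06, 3.04, 3.03 and 3.06 in the CTX/CD4 mice. The CTX/CD4 mice were all higher, which held for 5.26% of the 19 V segments. Where no D segment was named, this number includes D bases that were not recognised, and the share of TRBV17 clonotypes with no named D segment was 21.4% to 24.1% in the CTX mice and 23.2% to 29.6% in the CTX/CD4 mice.

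How much of the V end was kept overlapped between the groups. The median TRBV17 clonotype kept 14 of the 17 germline bases in each of the 8 mice. All 17 were kept in 11.6% to 19.6% of clonotypes. The fifth residue, which the untrimmed segment encodes as arginine, was arginine in 49.8% ± 2.03 of clonotypes (SD, n = 3) in CTX mice and 50.6% ± 0.366 (SD, n = 5) in CTX/CD4 mice.

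Within all mice but CTX/CD4 mouse 5, clonotypes of 1 read were a smaller part of TRBV17 than of the other V segments. The share was 79.7% ± 4.62 against 83.1% ± 4.34 (SD, n = 8), lower in 7 of 8 mice (exact sign-flip test, adjusted p = 0.0352). In the CTX mice it was 78.3%, 81.8% and 77.6% for TRBV17 against 85.0%, 88.1% and 82.3% for the others. In the CTX/CD4 mice it was 72.9%, 88.9%, 81.4%, 78.6% and 78.1% against 79.0%, 89.5%, 84.3%, 79.7% and 77.4%. The gap was widest in the CTX mice and CTX/CD4 mouse 1, and it was reversed in CTX/CD4 mouse 5. This call was lost on leaving out 1 mouse in 6 of 8 cases, namely each CTX mouse and CTX/CD4 mice 1, 3 and 4, with adjusted p from 0.0649 to 0.0703. Reads per clonotype were 1.40 ± 0.139 for TRBV17 and 1.35 ± 0.195 for the others, higher in 5 of 8 mice (SD, n = 8; exact sign-flip test, adjusted p = 0.113). The share of clonotypes of 1 read and the reads per clonotype were computed from the TRBV17 reads on which the segment was chosen. Their p-values are therefore not independent of that choice.

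Most TRBV17 clonotypes were private to 1 mouse. Of 3391 nucleotide clonotypes, 32 were found in 2 or more mice and none in more than 3. Of 3222 clonotypes defined by CDR3 residues and J segment, 3083 were found in 1 mouse, 116 in 2, 21 in 3, 1 in 5 and 1 in 6. A pair of mice had 1 to 14 of the latter in common. The share of TRBV17 clonotypes whose CDR3 residues and J segment recurred in another mouse was 9.50% ± 1.80 against 10.7% ± 0.568 in the other V segments (SD, n = 8), lower in 6 of 8 mice (exact sign-flip test, adjusted p = 0.0904). By group it was 11.6%, 7.98% and 8.57% in the CTX mice and 11.9%, 11.3%, 9.05%, 7.88% and 7.72% in the CTX/CD4 mice, and the groups overlapped. Private clonotypes made up 96.5% of the read difference, and they also held most TRBV17 reads in both groups, with means of 596 of 657 reads in the CTX mice and 500.0 of 557 in the CTX/CD4 mice.

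The clonotype found in 6 mice, 2 CTX and 4 CTX/CD4, joined TRBV17 to TRBJ2-7 with 14 residues and held 10 reads in all. It was encoded by 6 nucleotide sequences, of which 4 are shown to let the same residues be seen from different junctions.
CTX mice 1 and 3 and CTX/CD4 mouse 3: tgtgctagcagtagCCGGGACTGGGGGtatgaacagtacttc
CTX/CD4 mouse 5: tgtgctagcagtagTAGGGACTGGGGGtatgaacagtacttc
CTX/CD4 mouse 2: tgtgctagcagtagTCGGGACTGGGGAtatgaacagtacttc
CTX/CD4 mouse 1: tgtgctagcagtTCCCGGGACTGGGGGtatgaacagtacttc
The clonotype found in 5 mice used the same partner with 11 residues and 4 nucleotide sequences, among them the following, which kept 16 germline V bases.
CTX mouse 2 and CTX/CD4 mouse 2: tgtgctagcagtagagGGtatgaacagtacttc
No mouse had more than 2 reads of any 1 of these sequences, and a clonotype with 0 reads in a library of 10000 may still make up as much as 0.03% of it, the share that 3 reads correspond to.

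Across all V segments, TRBV17 ranked 6 by reads. In a single edgeR fit over 23 V segments its log2 fold change was -0.33 (SE 0.0758; CTX/CD4 against CTX, TMM normalization, given with no test). The log2 ratio of mean reads, -0.24, was 2 from the lowest, after TRBV21, which had 2 to 29 reads. TRBV24, with 11 to 29 reads, and TRBV13-3 were close to TRBV17, at -0.237 and -0.230 against -0.238. The median of the other segments was 0.07. By clonotypes the log2 ratio of TRBV17 was -0.36 and ranked 5 from the lowest, the median of the other segments was -0.11, and 20 of the 23 segments had a ratio below 1. TRBV16, which lies before TRBV17 on the chromosome, had 988, 1193 and 1146 reads in the CTX mice and 852, 905, 1311, 986 and 871 in the CTX/CD4 mice. TRBV19, which follows it, had 379, 410 and 427 against 401, 467, 416, 380 and 432. Both neighbors overlapped between the groups.

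The V segments whose share of reads was most like that of TRBV17 over the 8 mice were TRBV13-3 (Pearson's r = 0.799), TRBV13-1 (r = 0.576) and TRBV21 (r = 0.493). The least alike were TRBV20 (r = -0.751), TRBV2 (r = -0.727) and TRBV3 (r = -0.672). These are descriptions over 8 mice of 2 groups, and shares of 1 library are bound to each other because they sum to a fixed total.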

How the data were processed

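TCR β-chain libraries of 8 mice, 3 CTX and 5 CTX/CD4, were analyzed, with groups taken from the sample labels. Per the authors' methods, receptor transcripts were amplified by PCR and sequenced on the MiSeq platform. After adapter trimming, reads were aligned in MiXCR (version not given in the sources used here), VDJtools was used to extract each chain, and every library was brought to 10000 reads by down-sampling. The deposited counts are reads per clonotype after that step, and the deposited fraction of a clonotype is its count divided by the library total. The counts were used. The submitters' processing notes name mm10, and sequences and coordinates are from GRCm38 with GENCODE vM21. The PCR reads carry no stated molecular identifiers, so intervals cover counting error only. The α-chain tables were not used.

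The members, lists and comparisons were chosen with earlier results of these data known. Mice are the replicates, and nothing states separate batches. TRBV17 was set against the other V segments inside each mouse by an exact two-sided sign-flip test over 256 sign assignments, with Benjamini-Hochberg adjustment over 18 comparisons and a threshold of 0.05 (Python 3.11.15, numpy 2.4.6, pandas 2.3.3, scipy 1.17.1). V segments that reached 10 reads in 3 or more mice entered the edgeR 4.0.16 fit (R 4.3.3), with DESeq2 1.42.0 as an alternative. Functions were tested on simulated data. Named clonotypes were the most abundant of each mouse, those of 10 or more reads (at most 12), and those found in most mice. Alternatives changed the definition of a clonotype, the classes kept, the weighting, the comparison set, the normalization and the mice.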

Additional observations from a re-analysis of the deposited data

Results flagged for a closer look

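Among the 5 CTX/CD4 mice, 45 sets of TRBV17 values were examined for a mouse far from the other 4, and 5 held one, where chance alone flags about 1 set in 20. In CTX/CD4 mouse 5, TRBV17 reads joined to TRBJ2-1 were 179, against 74 to 89 in the other 4 mice, and the read-weighted mean CDR3 length was 13.4 residues, against 13.9 to 14.1; a clonotype of 78 reads and 9 residues joined to TRBJ2-1 belongs to both values. In CTX/CD4 mouse 4, the TRBJ2 share of TRBV17 clonotypes was 78.1%, against 79.5% to 79.8%, and 43 clonotypes were joined to TRBJ1-1, against 27 to 30. In CTX/CD4 mouse 1, 22 clonotypes were joined to TRBJ2-4, against 28 to 30.

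The number of unassigned bases between V and J lay on opposite sides of the other V segments in the groups. TRBV17 minus the other V segments was -0.0563, -0.141 and -0.0553 bases in CTX mice 1 to 3 and 0.105, 0.0448, 0.147, 0.0097 and 0.0153 in CTX/CD4 mice 1 to 5. The means differed by 0.148 bases between the groups, and this difference was not tested. How many of the other V segments changed sides between the groups in this way was not counted.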

How the results depend on the processing

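The difference in TRBV17 share of reads (-0.999 percentage points) was -2.49 without clonotypes of 1 read, left out of all V segments. It was -1.37 without the expanded clonotypes of TRBV17 alone, with those of the other V segments kept in the library total. The difference in clonotypes (-109) was -26.8 and overlapping without clonotypes of 1 read and -47.1 and overlapping at equal TRBV17 reads. That in reads per clonotype (0.127) was 0.781 without clonotypes of 1 read. The log2 fold change (-0.33) was -0.24 without normalization, -0.26 with DESeq2 and -0.18 for clonotypes in place of reads. Leaving out 1 mouse gave -1.12 to -0.887 percentage points, -118 to -93.1 clonotypes, 0.0658 to 0.163 reads per clonotype and a log2 fold change of -0.33 to -0.23, the last without CTX mouse 3. Replicate numbers did not pair the mice (correlations of same-numbered mice -0.698, -0.284 and 0.298); with the replicate block over replicates 1 to 3 these differences were -1.04 percentage points, -94.0 clonotypes, 0.0568 reads per clonotype and -0.31, and the within-mouse tests needed no block.

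The higher TRBJ2 share passed the test under every alternative run, at 10.0 to 11.05 percentage points on leaving out 1 mouse. The difference in mean CDR3 length missed the threshold when weighted by reads (0.0841 residues), without clonotypes of 1 read (0.137) and against TRBV16 and TRBV19 (0.0250), and on leaving out 1 mouse was 0.128 to 0.164, missing it without CTX mice 1 or 2 or CTX/CD4 mouse 3 (adjusted p = 0.0511 each, exact sign-flip test). The difference in unassigned bases (0.0087) changed sign when weighted by reads (-0.124) and against TRBV16 and TRBV19 (-0.164, adjusted p = 0.0176, exact sign-flip test), and on leaving out 1 mouse was -0.0110 to 0.03001, with the sign changed without CTX/CD4 mouse 1 (-0.0051) or 3 (-0.0110). The difference in clonotypes found in another mouse (-1.24 percentage points) passed the test without clonotypes of 1 read (-1.79) and changed sign against the median of the other segments (0.805), and was -1.62 to -0.983 on leaving out 1 mouse. On leaving out 1 mouse the share of clonotypes of 1 read differed by -4.03 to -2.98 percentage points and reads per clonotype by 0.0435 to 0.0733. Of the 9 single TRBJ partners that passed the test, TRBJ2-5 and TRBJ1-6 passed under all alternatives run. TRBJ2-3 changed sign when weighted by reads (-0.513) and without clonotypes of 1 read (-0.0452). Of 150 values recomputed other than by leaving out a mouse, 115 kept their direction and side of the threshold, or moved by less than the spread between mice, 19 no longer passed the test, 3 newly passed it, 8 moved by more than that spread and 5 changed sign. The causes of these changes were not tested. With 10000 reads a library, clonotypes of 1 or 2 reads are the least precisely counted, and a clonotype's absence from a library is not shown. These classes hold most of the group difference in TRBV17 read counts, and the other V segments also had lower mean reads in both.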
